A study of Mus musculus with 5 samples.

Results

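The genes described here encode the proteins of the cytosolic ribosome, 80 genes on the arrays out of 21150 gene symbols. They were picked by name alone: a spot counted when its transcript belonged to a gene symbol of the Rpl, Rps, Rplp or Rpsa pattern, without the Rps6k kinase genes and without pseudogenes. Of the 80 genes, 49 belong to the large subunit and 31 to the small subunit. The RNA came from adherent peritoneal macrophages, phagocytes of the abdominal cavity, of 3 wild-type mice (numbers 5, 11 and 14) and 2 c-JunΔLysM mice (numbers 1 and 9), and was hybridised to 1-colour Agilent arrays. The c-JunΔLysM mice carried floxed c-Jun alleles with LysM-Cre, and are called c-Jun-deleted below; their source names give Mx in place of LysM. All mice were 8 weeks old, of either sex, on a 129/C57Bl6 background, and the wild-type mice were littermates. Cells from the lavage were kept on plates overnight, and RNA was taken from those that adhered. LysM-Cre is expressed from the lysozyme gene Lyz2 and acts in myeloid cells, and other cells on the plate are not its target. The labels speak of numbered mice; were they not separate animals, the p-values would reflect no more than technical spread.

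Each ribosome has a small subunit, which reads the messenger RNA, and a large subunit, which joins amino acids. Their proteins are needed in nearly equal numbers, and their genes are among the most strongly transcribed in any cell. Most of these messengers begin with a run of C and T bases at the cap (a 5′ terminal oligopyrimidine tract, or TOP), through which mTOR signalling controls their translation. c-Jun is a subunit of the transcription factor AP-1.

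The starts of 6 of the genes are shown because the results below turn on these genes and so that the C and T runs can be seen. Each stretch covers 30 bases before and 20 bases from the start in RefSeq (GRCm38.p6), on the transcript strand. Capitals mark its longest run of C and T, or the first of them where runs are equally long. In order, the stretches lie at chr2:32961682-32961731 (+), chr9:66946056-66946105 (+), chr4:86857348-86857397 (-), chr17:33955646-33955695 (-), chr7:45128726-45128775 (-) and chr7:45718041-45718090 (+). The Rps27l stretch is the first of 2 RefSeq starts.
Rpl12: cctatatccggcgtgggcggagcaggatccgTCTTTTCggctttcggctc
Rps27l: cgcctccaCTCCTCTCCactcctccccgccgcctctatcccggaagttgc
Rps6: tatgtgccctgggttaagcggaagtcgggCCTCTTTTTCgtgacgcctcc
Rps18: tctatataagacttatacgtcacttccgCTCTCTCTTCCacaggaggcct
Rpl13a: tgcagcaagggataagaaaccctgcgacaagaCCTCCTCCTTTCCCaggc
Rpl18: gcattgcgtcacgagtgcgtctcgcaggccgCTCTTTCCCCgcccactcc

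In Rpl12, Rps6, Rps18, Rpl13a and Rpl18 the run lies at or next to the annotated start. In this Rps27l stretch the marked run lies upstream, and an equally long one follows it, closer to the start. An entry with 300 bases around the start, 250 of them before it, was found for 60 of the 80 genes. It was set beside the same windows of 27025 genes. A run of at least 8 C or T bases within 50 bases of the start, on the transcript strand, was present in 51 of the 60 (85%) and in 39.3% of all genes. The letters CCGGAAG, a core to which GABP and other Ets factors bind, occurred on either strand in 24 (40%), against 9.93% of all genes. The AP-1-like letters TGANTCA, where N is any base, occurred on either strand in 2 (3.33%), against 8.97% of all genes. TATAAA on the transcript strand occurred in 6 (10%), against 9.77%. These are matches of letters and not measured binding sites.

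Arrays were scaled to their own 75th percentile of signal, and every value below is log2 of the signal over that percentile unless it is called a difference. Between 52.1% and 59.9% of the probes on an array were well above background. Jun itself was at 3.21, 3.75 and 3.17 in wild-type against 2.76 and 2.71 in c-Jun-deleted cells (adjusted p = 0.391, limma with Benjamini-Hochberg adjustment); the place of its probe in the gene is not known here, so the level is no check of the genotype. Of 12 macrophage markers, 11 were measured well enough to test, Adgre1, Csf1r and Cd68 among them. Slide 1 held wild-type 5 with c-Jun-deleted 1, and slide 2 held c-Jun-deleted 9 with wild-type 11 and 14; the scan times fell the same way.

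Of the 80 ribosomal protein genes, 70 were tested, and all 70 were well above background on all 5 arrays. In the comparison of genotypes none of them passed the threshold of 0.05 for the adjusted p (limma, 2-sided, Benjamini-Hochberg over all 27940 genes tested, where an unnamed probe counts as a gene), nor did any gene of the array (0%). At an unadjusted p below 0.05 there was 1 ribosomal protein gene, Rpl12, or 1.43%, against 12.2% of all genes. The genes that did not overlap between the groups numbered 15, or 21.4%, against 33.5% of all genes. Of these, 14 were higher in c-Jun-deleted cells (20%, against 13.3% of all genes) and 1, Rps27l, was lower (1.43%, against 20.2%).

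The differences were small. The median over the 70 genes was 0.077 (c-Jun-deleted minus wild-type, log2), with quartiles of -0.0068 and 0.18 and a range from -0.32 to 0.55. Over all genes tested the median was -0.092, with quartiles of -0.35 and 0.14. A log2 difference beyond 0.5 in either direction was seen for 2 ribosomal protein genes (2.86%), Rpl12 and Rpl39l, against 27.3% of all genes, and one beyond 0.25 for 8 (11.4%), against 50.3%. The median standard error of a single ribosomal protein gene was 0.16, against 0.22 over all genes. The spread over the 5 arrays was also narrow: from the highest to the lowest array the median was 0.34, against 0.71 over all genes, and the median SD among the 3 wild-type arrays was 0.10, against 0.24.

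**Figure D1:**
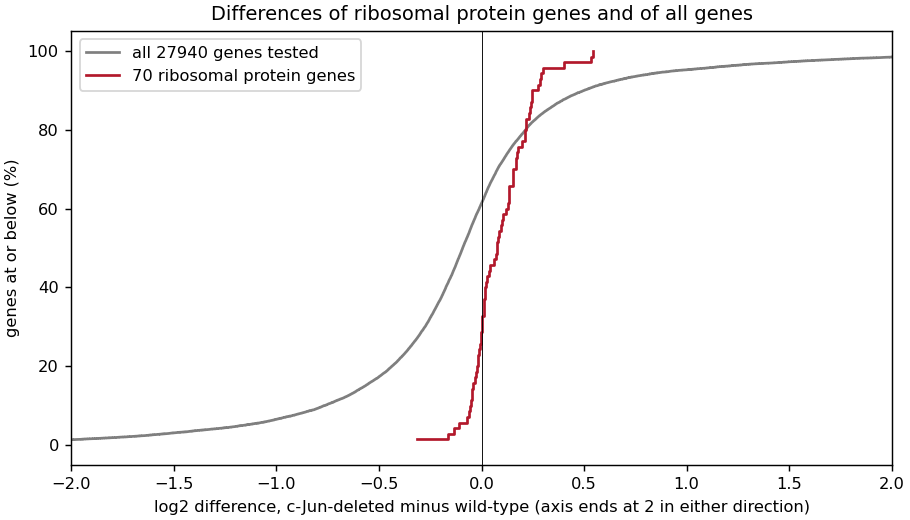
Cumulative share of genes (percent) against the log2 difference, c-Jun-deleted minus wild-type, for the 70 tested ribosomal protein genes (red) and all 27940 genes tested (grey). The red curve runs from -0.32 to 0.55 and is the steeper one, with its median at 0.077, while the grey median lies at -0.092.

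More ribosomal protein genes lay above 0 than below it: 50 of 70 (71.4%), against 38.6% of all genes. The large and small subunits gave similar counts. In the large subunit 30 of 43 tested genes were on the higher side, with a median difference of 0.077, and 10 of them lay above the wild-type range. In the small subunit 20 of 27 were on the higher side, with a median of 0.059, and 4 lay above the wild-type range and 1 below it.

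The arrays within a genotype did not stand together. Relative to the wild-type mean of each gene, the median over the 70 genes was 0.069, -0.085 and 0.028 on wild-type 5, 11 and 14, in that order. It was -0.038 on c-Jun-deleted 1 but 0.16 on c-Jun-deleted 9. The c-Jun-deleted 1 array therefore lay inside the wild-type range, and c-Jun-deleted 9 above it. Over all genes the same medians were 0.025, -0.026, 0.0024, -0.072 and -0.091. Of the 70 genes, 47 had their highest value on c-Jun-deleted 9 (67.1%, against 21.9% of all genes), and 35 had their lowest on wild-type 11 (50%, against 21.2%). The lowest value was on c-Jun-deleted 1 for 17 genes (24.3%, against 19.7%), and the highest on wild-type 5 for 15 (21.4%, against 19.9%).

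**Figure D2:**
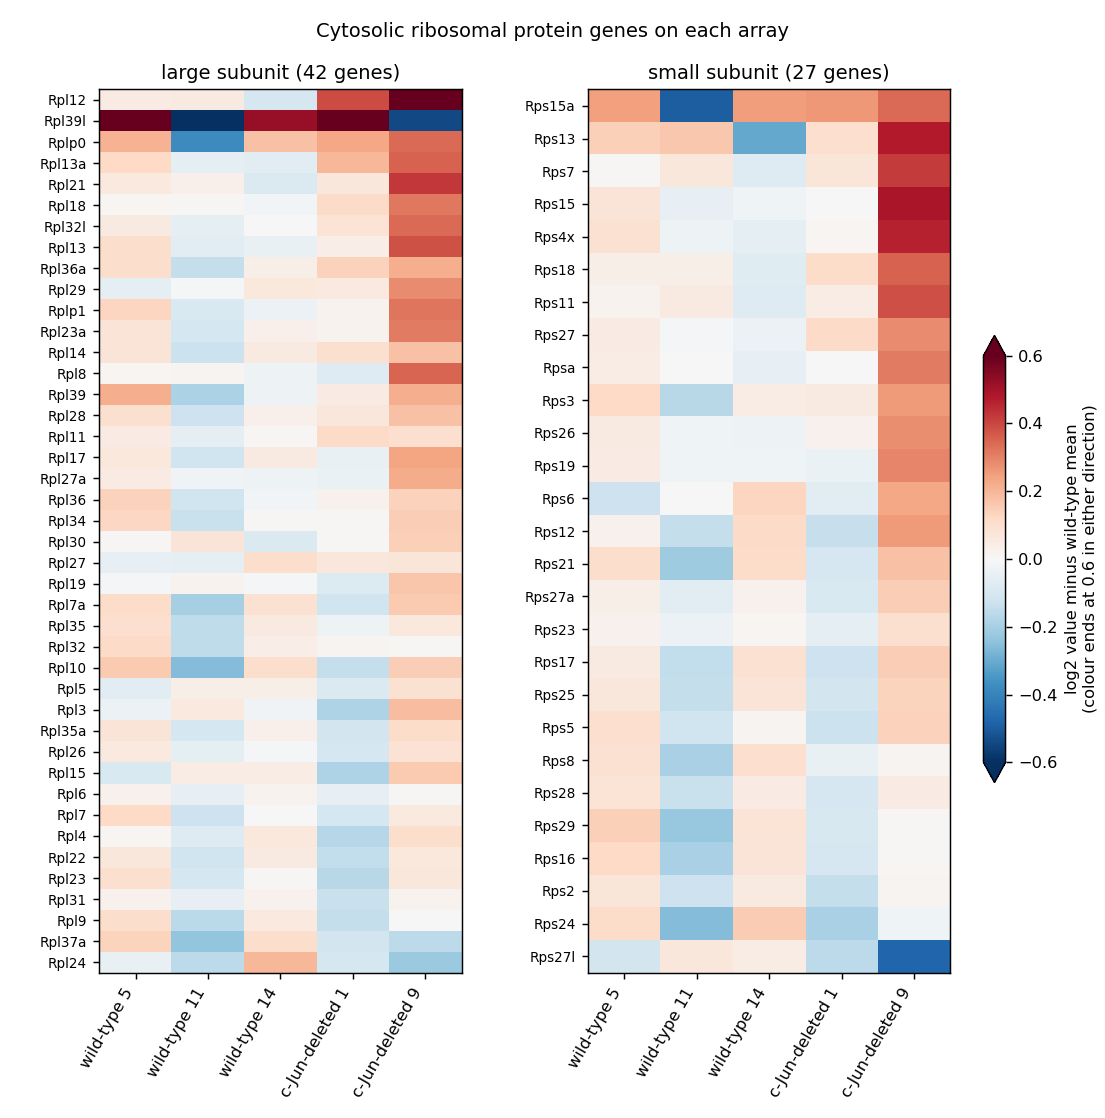
Log2 value of tested ribosomal protein genes on each array, minus the gene's wild-type mean (colour, ending at 0.6 in either direction), for 42 large-subunit and 27 small-subunit genes ordered by their difference. The column of c-Jun-deleted 9 is mostly red and that of wild-type 11 mostly blue, while c-Jun-deleted 1 is red for the upper rows and blue for the lower ones.

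In the scaling used throughout, the excess on the higher side rested on c-Jun-deleted 9. Without that array the median difference was -0.038, with 32 of 70 genes on the higher side. Then 15 lay above the wild-type range (21.4%, against 18.3% of all genes) and 18 below it (25.7%, against 32.4%). Without c-Jun-deleted 1 the median difference was 0.16, with 65 of 70 on the higher side. Then 48 of 70 lay above the wild-type range (against 24.9% of all genes) and 2 below it (against 36.0%). Within slide 1, which compares wild-type 5 with c-Jun-deleted 1, the median was -0.084 and 19 of 70 genes were on the higher side. Within slide 2 it was 0.21 and 67 of 70 were. With the slide as a block the median was 0.080, and 52 of 70 were on the higher side. Without wild-type 11 it was 0.032, with 15 genes above the wild-type range (21.4%, against 19.9% of all genes) and 13 below it (18.6%, against 33.7%).

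The count above the wild-type range also moved with the scaling. That count was 34 of 70 after quantile normalization (18.1% of all genes) and 44 after normexp background correction with quantile normalization (18.3%). It was 13 with centring on the median of well measured probes (13.1%) and 41 with centring on the median of all spots (23.9%). The median difference of the ribosomal protein genes was 0.22, 0.24, 0.072 and 0.29 in the same order, and that of all genes was -0.092 in the scaling used throughout, -0.0098 after quantile normalization and 0.12 with the median of all spots. In each of the 18 settings tried the ribosomal protein median lay above that of all genes, by 0.011 within slide 1 up to 0.28 within slide 2. None of the 70 genes had an adjusted p below 0.05 in any setting that allowed a test.

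Markers of macrophages and of other cells were read on the same arrays, and not all lists differed by genotype. All 17 tested B cell markers were higher in c-Jun-deleted cells, none was at 0, and their summed signal, in multiples of the 75th percentile, ran from 65.0 to 120 in wild-type and from 413 to 611 in c-Jun-deleted cells. Summed signals of the 11 macrophage markers, Lyz2 among them, were 1371 to 1890 in wild-type and 1123 to 1359 in c-Jun-deleted cells. Of the 11, 8 were lower. The wild-type range lay above 5 of the 11 (against 20.2% of all genes) and below 2 (against 13.3%). Sums without Lyz2 were not taken, so the gap between these sums cannot be assigned to the other macrophage markers. Lyz2, the gene from which LysM-Cre is expressed, read 8.70, 8.76 and 9.18 in wild-type, but 4.46 on c-Jun-deleted 1 against 8.52 on c-Jun-deleted 9. The summed signal of 13 T and NK cell markers was 19.4 to 53.9 against 59.2 to 77.5, with 8 of 13 higher. Of the 13, 2 lay above the wild-type range (against 13.3% of all genes). Relative to the wild-type mean, their median was highest on wild-type 11, at 1.25, against 0.14 and 0.53 on c-Jun-deleted 1 and 9. That of 11 mesothelial and stromal markers was 5.19 to 12.1 against 3.50 to 4.89, with all 11 lower. For 7 erythroid markers it was 0.668 to 1.52 against 10.8 to 23.0, with 5 of 7 higher. The sums of 2 further lists overlapped between the genotypes. For 7 mast cell markers the sum was 41.2 to 121 against 92.3 to 98.3, with all 7 higher. For 5 neutrophil markers it was 14.8 to 17.4 against 11.0 to 16.7, with 3 of 5 higher. The part of these cells in the ribosomal protein values was not tested. In bulk RNA, fewer cells of a type and less RNA per cell cannot be told apart.

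Among the large-subunit genes whose groups did not overlap, Rpl12 had the largest difference. Its protein sits at the base of the stalk, the arm that recruits the elongation factors. Rpl12 was at 6.42, 6.43 and 6.28 in wild-type against 6.77 and 7.07 in c-Jun-deleted cells, and both c-Jun-deleted arrays lay above all wild-type ones. The difference was 0.55 (SE 0.17), or 1.46-fold, with an unadjusted p of 0.0227 and an adjusted p of 0.335 (limma). This value comes from its less bright probe, because the brightest one carried an outlier flag on c-Jun-deleted 1. With the flagged spot kept, the brightest probe read 7.79, 7.61 and 7.60 in wild-type against 7.69 and 8.26 in c-Jun-deleted cells, a difference of 0.31 with overlapping groups.

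Rplp0 encodes the protein that anchors the stalk and binds next to the Rpl12 protein. It was at 7.92, 7.34 and 7.89 in wild-type against 7.95 and 8.06 in c-Jun-deleted cells. The difference of 0.29 (SE 0.24) had an adjusted p of 0.633 (limma), and wild-type 11 alone was low. This value also comes from a less bright probe, because the brightest one was flagged on wild-type 5 and 11. With those spots kept, the brightest probe gave 0.22. The dimmest probe also gave 0.22, and both had overlapping groups. Rplp1, which hangs on the stalk as a dimer with Rplp2, was at 8.11, 7.89 and 7.95 in wild-type against 8.00 and 8.30 in c-Jun-deleted cells, a difference of 0.17 with overlapping groups. Rplp2 was not tested because of a flagged spot on c-Jun-deleted 9; with it kept, the difference was -0.09.

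Rpl13a, Rpl21 and Rpl18 are structural proteins of the large subunit. Rpl13a, which has a known second role in holding back translation of inflammatory messengers in interferon-treated myeloid cells, was at 7.38, 7.21 and 7.19 against 7.46 and 7.62, a difference of 0.28 (SE 0.15). The groups were apart for this Rpl13a probe, with c-Jun-deleted 9 the highest array. The dimmer probes of Rpl13a gave differences of 0.10 and -0.10, with overlapping groups. Rpl21 was at 6.67, 6.64 and 6.53 against 6.68 and 7.04, so that c-Jun-deleted 1 lay only just above wild-type 5. Its dimmer probes gave differences of -0.02 and 0.17, also with overlapping groups. Rpl18 was at 6.83, 6.83 and 6.80 against 6.93 and 7.14. The differences of Rpl21 and Rpl18 were 0.25 and 0.22, and the adjusted p of the 3 genes ran from 0.496 to 0.578 (limma).

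In the small subunit, Rps15a, Rps7 and Rps18 lay above the wild-type range. Rps15a, a core protein that binds the ribosomal RNA early in assembly, was at 7.01, 6.26 and 7.01 in wild-type against 7.02 and 7.10 in c-Jun-deleted cells. Its difference was 0.30 (SE 0.28). On this probe wild-type 11 alone was low, and the other wild-type arrays lay close to both c-Jun-deleted arrays. A second bright probe read 6.81, 6.74 and 6.55 against 6.88 and 7.18, a difference of 0.33 with groups apart. The dimmest Rps15a probe, near background, is described below. Rps7, which binds the p53 regulator Mdm2 when free of the ribosome, was at 6.86, 6.92 and 6.78 against 6.92 and 7.27, a difference of 0.25. Rps18, in the head of the small subunit, was at 6.76, 6.76 and 6.66 against 6.83 and 7.08, a difference of 0.23. The dimmer Rps18 probe gave 0.28, also with groups apart. The adjusted p of these 3 genes was 0.677, 0.575 and 0.560 (limma).

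Rps27l was the 1 gene of the 70 tested that lay below the wild-type range. It is a paralog of Rps27 and a known target of p53. Rps27l was at 5.75, 5.93 and 5.91 in wild-type against 5.71 and 5.39 in c-Jun-deleted cells, a difference of -0.32 (SE 0.17), or 1.24-fold lower, with an adjusted p of 0.493 (limma). The c-Jun-deleted 1 array lay just below wild-type 5, and c-Jun-deleted 9 further down. Its parent Rps27 went the other way, at 8.00, 7.94 and 7.92 against 8.07 and 8.24, a difference of 0.20 (adjusted p = 0.581, limma). This Rps27 value comes from a less bright probe, because the brightest one was flagged on wild-type 11. With flagged spots kept, the brightest probe gave 0.44, and another, flagged on 3 arrays, gave -0.28. A further probe without flags gave 0.26. All of these had overlapping groups. The difference between the paralogs' changes was not tested.

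**Figure D3:**
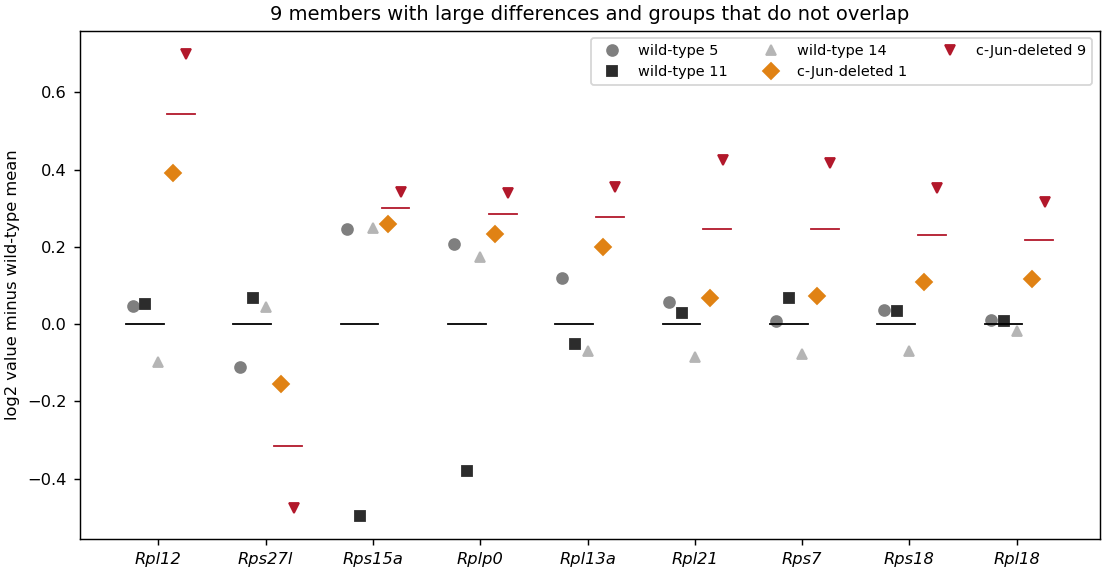
Log2 value on each array minus the gene's wild-type mean, for 9 of the 10 ribosomal protein genes with the largest differences among those whose groups did not overlap; symbols mark arrays and horizontal bars the group means. In 8 genes both c-Jun-deleted arrays lie above the wild-type ones, in Rps27l both lie below, and in all 9 c-Jun-deleted 9 is the outermost c-Jun-deleted array.

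Smaller differences above the wild-type range were those of Rpl32l (0.21), Rps27 (0.20), Rpl36a (0.18), Rpl14 (0.14) and Rpl11 (0.11). On the lower side, after Rps27l, the differences were largest for Rpl24 (-0.16), Rpl37a (-0.13), Rps24 (-0.11) and Rpl9 (-0.07), all with overlapping groups.

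Paralogs, some of them best known from single tissues, were read separately. Rpl39l, a paralog of Rpl39 best known from testis, was at -0.48, -3.62 and -1.27 in wild-type against -0.18 and -2.33 in c-Jun-deleted cells. Its difference of 0.53 had an SE of 1.16, and the values scattered across both groups. Rpl39 itself had a difference of 0.13. Rpl3l, a muscle paralog of Rpl3, and Rpl10l, a testis paralog of Rpl10, were not well above background on any array and were not tested. Their parents Rpl3 and Rpl10 had differences of -0.0016 and 0.0034. Rps4l, whose symbol has the pattern but which RefSeq lists as a transcribed pseudogene, is not among the 80; it read 2.78, 1.55 and 3.71 in wild-type against 2.90 and 1.90 in c-Jun-deleted cells, a difference of -0.28 (SE 0.72) with overlapping groups.

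Genes mutated in Diamond-Blackfan anaemia, a failure of red cell production, were tested for 18 of the 19 listed. Their median difference was 0.01, with 11 on the higher and 7 on the lower side, and it ran from -0.11 for Rps24 to 0.30 for Rps15a. Rps19, the gene most often affected in patients, was at 6.46, 6.39 and 6.38 in wild-type against 6.37 and 6.70 in c-Jun-deleted cells, with a difference of 0.13. None of the 18 genes passed the test. Rpl5 and Rpl11, which with a ribosomal RNA form the particle that binds Mdm2, had differences of 0.0014 and 0.11. Of 7 genes with well known functions outside the ribosome, 5 were on the higher side, with a median of 0.08; they ran from Rpl23 (-0.05) to Rpl13a (0.28). Rps3, an NF-kB partner and DNA repair protein, and Rpsa, which also serves as a laminin receptor, both had a difference of 0.16.

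Probes of the same gene did not always give the same answer. The 80 genes had 167 probes, of which 134 were tested, each on its own, over 32565 probes of the array. None of the 134 had an adjusted p below 0.05, and 3 had an unadjusted p below 0.05, against 12.4% of all probes. For the 42 genes with several tested probes, the gap between a gene's highest and lowest difference had a median of 0.11, and for 19 of them the signs were not all alike. The gap was above 0.5 for 3 genes: Rps6 (1.62), and Rps27a and Rps15a, whose dimmest probes were well above background on 2 arrays each, so that the size of their gaps is uncertain.

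Rps6 encodes the small-subunit protein that S6 kinases phosphorylate downstream of mTOR. Its brightest probe read 7.71, 7.83 and 7.96 in wild-type against 7.77 and 8.06 in c-Jun-deleted cells, a difference of 0.08. A further probe read 6.66, 6.44 and 6.58 against 6.70 and 7.05, a difference of 0.32. The third probe of the same transcript went the other way, with 3.52, 2.49 and 3.60 in wild-type against 1.88 and 1.93 in c-Jun-deleted cells. Both c-Jun-deleted arrays were below every wild-type array on it, by 1.30 in the mean (SE 0.39), with an unadjusted p of 0.0209 and an adjusted p of 0.323 over all probes (limma). Of the Rps6 probes, the dim one alone was read from the stronger scan on every array, and what it detects was not tested.

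Rps27a encodes ubiquitin fused to a small-subunit protein. Its brighter probes had differences of 0.03 and -0.12. The third probe, designed on another transcript, read -4.55, -3.97 and -5.11 in wild-type against -5.93 and -6.71 in c-Jun-deleted cells. It was well above background on wild-type 5 and wild-type 11 alone. The probe thus passed the filter only through the group where it was high, so neither a size nor a test of its difference is given here. For Rps15a, the brighter probes had differences of 0.30 and 0.33, and the third probe was well above background on wild-type 11 and c-Jun-deleted 1 alone, too few for a difference. The authors' deposited table, which lists 1709 probes with an absolute log2 difference of at least 1.0002, holds just 2 ribosomal protein probes. These are the third probe of Rps6, with a difference of -1.30 in the authors' deposited table, and the third probe of Rps27a, with -1.78 there. Read by that table alone, Rps6 and Rps27a would be the ribosomal protein genes that differ; by their brightest probes they differed by 0.08 and 0.03.

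**Figure D4:**
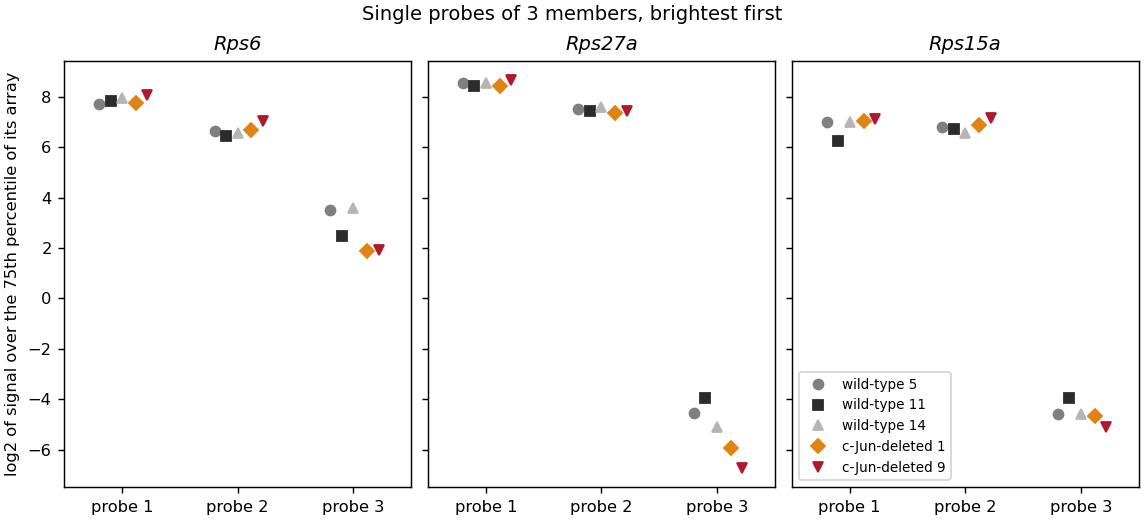
Log2 of the signal over the array's 75th percentile for 3 probes each of Rps6, Rps27a and Rps15a, brightest first, with a symbol for each array. The brighter probes of Rps6 and Rps27a keep the 5 arrays within a narrow band, wild-type 11 is low on the brightest Rps15a probe, and the third probes of Rps6 and Rps27a place both c-Jun-deleted arrays below the wild-type ones.

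The 10 genes that were not tested were looked at by their values. Apart from Rpl3l and Rpl10l, 8 lacked a value on some array once flagged spots were removed: Rpl10a, Rpl38, Rpl41, Rplp2, Rps9, Rps10, Rps14 and Rps20. Rps20, in the head of the small subunit, had outlier flags on both c-Jun-deleted arrays. With the flagged spots kept it read 8.98, 8.69 and 8.95 in wild-type against 8.02 and 8.35 in c-Jun-deleted cells, a difference of -0.69 with groups apart (limma adjusted p = 0.302). Rps14, with a flag on c-Jun-deleted 9, read 9.15, 8.69 and 9.14 against 8.81 and 8.53, a difference of -0.32. The differences of the others, read the same way, were 0.27 for Rpl10a, 0.20 for Rpl38, 0.20 for Rpl41, -0.09 for Rplp2, 0.03 for Rps9 and -0.01 for Rps10.

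Ribosomal proteins whose symbols fall outside the naming pattern had differences in the same range. Fau, a ubiquitin-like fusion of a small-subunit protein, had a difference of -0.15. The differences of Rpl36al and Rpl7l1 were 0.059 and -0.017. Rpl22l1, the paralog of Rpl22, was at 5.58, 5.46 and 5.67 in wild-type against 5.82 and 5.95 in c-Jun-deleted cells, above the wild-type range. Its difference was 0.31 (adjusted p = 0.456, limma), and the difference of Rpl22 was -0.04. Rack1, a scaffold on the small subunit, was not tested.

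Other genes of protein synthesis were counted beside the ribosomal protein genes, and 0 of them had an adjusted p below 0.05 (limma). Of 22 other genes with TOP messengers, 9 were on the higher and 13 on the lower side, with a median of -0.05; the extremes were Pabpc1, the poly(A)-binding protein (-0.24), and Nap1l1 (0.33). Initiation and elongation factors had a median of -0.12, with 11 of 38 on the higher side, from Eif5b (-0.44) to Eif3i (0.19). Mitochondrial ribosomal proteins, which serve the separate ribosome of that organelle, had a median of -0.07, with 17 of 76 on the higher side. Of the 76, 2 lay at an unadjusted p below 0.05, a smaller share than the 12.2% of all genes, and both were on the lower side: Mrpl38 (-0.90) and Mrpl13 (-0.44).

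Factors that build ribosomes had a median of 0.07, close to that of the ribosomal proteins, with 40 of 53 on the higher side. At an unadjusted p below 0.05 there were 3 of 53, all higher, where 12.2% of all genes lay below it, so the share was not above that of the array. Tcof1, which promotes transcription of ribosomal RNA, was at 2.85, 2.66 and 2.85 in wild-type against 3.30 and 3.31 in c-Jun-deleted cells, a difference of 0.52. Dkc1, the enzyme that makes pseudouridine in ribosomal RNA, had a difference of 0.58. Ubtf, a transcription factor of the ribosomal RNA genes, had a difference of -0.65, and Heatr1 had a difference of -0.61.

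Of 24 genes of mTOR and TOP control, 10 were on the higher and 14 on the lower side, with a median of -0.05. Mxd1, an antagonist of Myc, was at 2.55, 2.16 and 2.69 in wild-type against 1.53 and 1.46 in c-Jun-deleted cells, a difference of -0.97 with an unadjusted p of 0.00619 and an adjusted p of 0.247 (limma). Myc had a difference of 0.72 with overlapping groups, Pdcd4, an inhibitor of initiation, had 1.09 with overlapping groups, and Deptor, an mTOR inhibitor, had -0.54. Of 10 small nucleolar RNA host genes, several of which carry TOP starts, 7 were on the higher side with a median of 0.18, led by Snhg3 (2.11) and Snhg18 (1.85).

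**Figure D5:**
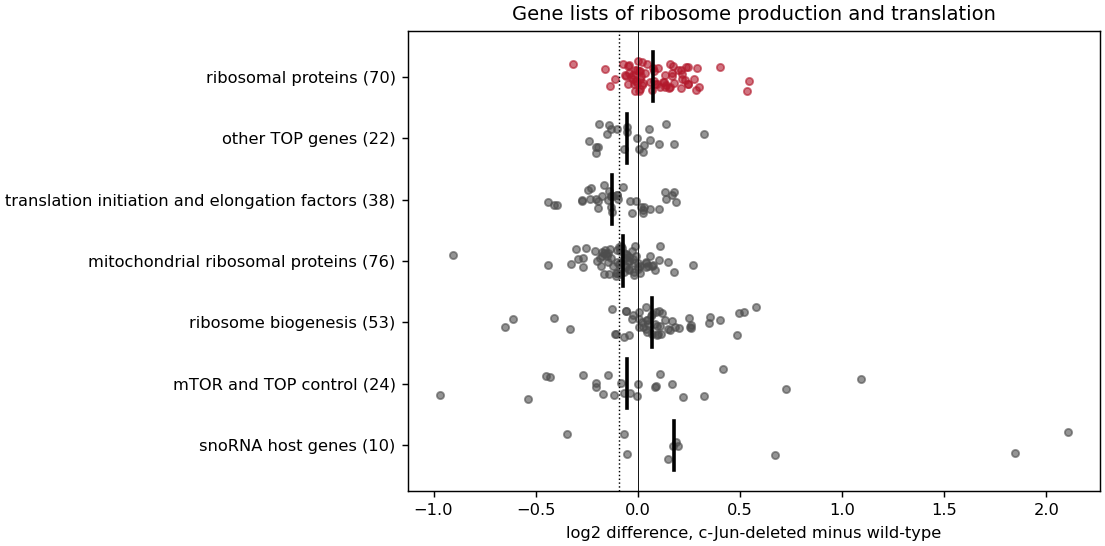
Log2 difference, c-Jun-deleted minus wild-type, of each tested gene (points) in the ribosomal protein genes (red) and 6 other gene lists (grey), with the number tested in parentheses; thick bars are list medians and the dotted line is the median of all genes. The ribosomal proteins span the narrow interval from -0.32 to 0.55 around 0.077. Every other list except that of the other TOP genes holds single genes farther out.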

How the data were processed

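The deposited scanner files hold the spot intensity as Feature Extraction 11.5.1.1 wrote it, background-subtracted, per the file headers. The deposited series table holds log2 values as 1 mean per group, and of the 4 wild-type arrays in its header, array 13 was not used here. Labelled RNA was made from 50 ng, per the labels' protocols. Controls and outlier-flagged spots were removed, spots of a probe were averaged, and log2 signals were set against each array's 75th percentile. Probes well above background on at least 2 arrays were kept. Transcripts were named through RefSeq symbols (GRCm38.p6) for 28020 of 55681 probes. A gene was its brightest probe with values on all arrays; this was another probe than the brightest for 10 of the 70 tested members. The fit used limma 3.58.1 in R 4.3.3 (2-sided, Benjamini-Hochberg, threshold 0.05) and was tested on simulated data.

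Genes named with values were the 10 of largest absolute difference among members with non-overlapping groups, members of small function lists by their extremes, and up to 2 extremes at each end of other lists; genes with differing probes, untested members and starts shown were chosen after their values were seen. Counts cover all tested genes, but some genes are not reported here by name. Members and lists were chosen with earlier results of these data known. The scanner files carry no mean spot signal, so normexp (offset 50) used the median. Alternatives covered scaling, background, dim probes, slide, array weights, probes, flagged spots and leaving out arrays. Precision is limited by the number of arrays.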

Additional observations from a re-analysis of the deposited data

How the results depend on the processing

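The count of ribosomal protein genes with an adjusted p below 0.05 (limma) was 0 in every setting that allowed a test, with a lowest adjusted p between 0.207 and 0.910; at an unadjusted p below 0.05 it was 12 of 70 at most (17.1%, against 14.1% of all genes), after normexp with quantile normalization. Over all genes the count was 187 with the median of all spots, an alternative chosen after seeing the data, 1 with array weights and 0 with each array left out. The median difference of the ribosomal protein genes was 0.24 after normexp with quantile normalization, 0.22 after quantile normalization, 0.29 with the median of all spots, -0.084 within slide 1 and 0.21 within slide 2, and from -0.038 to 0.16 with an array left out; the cause was not tested. Within slide 1 there is 1 array per genotype and no test. Fitting every probe on its own was also chosen after seeing the data. No paired analysis was possible because the groups share no mouse number. Dim probes, such as the third ones of Rps27a and Rps15a, were near background, where the size of a difference is uncertain.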

Other observations

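Differences of the ribosomal protein genes were also set against the brightness of their probes. Among 69 tested genes, Rpl39l left out, the 34 brighter ones had a median difference of 0.02, with 22 on the higher side, and the 35 dimmer ones a median of 0.13, with 27 on the higher side. Across these genes the correlation of level and difference was -0.34 (Pearson) and -0.40 (Spearman). The genes share the same 5 arrays and the same weaker scan and are not independent replicates. The medians of the brighter and dimmer genes were 0.21 and 0.26 after quantile normalization, -0.12 and -0.065 within slide 1, and -0.059 and 0.014 without c-Jun-deleted 9, so the brighter genes had the lower median but not always the smaller difference. Among tested genes with a RefSeq window, the 44 with a C and T run near the start had a median difference of 0.06 and the 8 without one a median of 0.16.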
